A study of Mus musculus with 14 samples.

Results

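HOX genes encode homeodomain transcription factors that tell cells where they lie along the body axis. In mammals they stand in clusters named HOXA, HOXB, HOXC and HOXD, and genes of the same number in different clusters are paralogs. Low paralog numbers are used towards the head and high numbers towards the tail and the ends of the limbs, in the same order as the genes lie along the chromosome. In adult skin the pattern laid down in the embryo persists, mainly in dermal fibroblasts, and a few members are also used by keratinocytes and hair follicles, such as Hoxc13, which hair shaft keratin genes need.

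The HOX genes were taken as all rows of the deposited count table whose gene name is Hox followed by a cluster letter a to d and a paralog number. This gave 39 genes of the 56953 in the table, with 11 in HOXA, 10 in HOXB, 9 in HOXC and 9 in HOXD. They were measured in 14 libraries of mouse skin RNA, made with a QuantSeq forward kit that reads 1 short tag close to the 3′ end of a transcript. Levels are given as CPM, read counts scaled to library size with TMM factors, and because of the single tag per transcript they are compared between genes without dividing by gene length.

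Wild-type skin came from C57BL/6J mice, with 2 libraries after DMSO and 2 after imiquimod. NEDD8fl/fl mice without Cre, called Cre-negative here, carry Nedd8 flanked by loxP sites and gave 3 libraries with DMSO and 2 with imiquimod. NEDD8fl/fl mice with K14-CreERT, called knockout here, provided 3 DMSO and 2 imiquimod libraries. The K14 promoter drives the inducible Cre in basal keratinocytes, so dermal cells are not its target, and these mice were induced for 5 days before treatment. Induction is not mentioned for wild-type or Cre-negative mice, so the inducing treatment and the deletion cannot be told apart. NEDD8 is a ubiquitin-like protein whose attachment to cullins activates a large family of ubiquitin ligases. Imiquimod, an agonist of Toll-like receptor 7, was given as a 5% cream daily from day 0 to day 7, and no library had the cream base alone. The series asks how NEDD8 acts in epithelial homeostasis and inflammation.

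Shaved backs or right ears received the cream, and the site behind each library is not given. HOX levels depend on body site, so site and group cannot be told apart in any comparison here. The libraries held 5552954 to 34362477 counts, of which 667 to 10446 fell on HOX genes, and the ribosomal RNA gene Rn18s-rs5 took 3.84% to 19.1%. By Xist and Y-linked reads, the 4 wild-type and 3 knockout DMSO libraries were female, the 4 imiquimod libraries of the other genotypes were male, and Cre-negative DMSO replicates 1, 2 and 3 were male, male and female. Basal keratinocyte markers, the defining genes of epidermis, were present in every library, with 0 of 10 at 0 and a summed level of 4167 to 20614 CPM. Nedd8 ranged from 147 to 375 CPM in the knockout libraries and from 203 to 684 CPM in the others, and a 3′ tag outside the deleted part would not show the deletion. The labels do not state that libraries came from separate animals, so p-values measure only the spread between these libraries, which may be technical.

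On the GRCm39 build of the count table, HOXA lies on chromosome 6, and HOXB spans chromosome 11 from 96085142 to 96259082, HOXC chromosome 15 from 102829538 to 102945278 and HOXD chromosome 2 from 74498654 to 74595486. Enough reads for a test were found for 27 members: 8 of HOXA, 8 of HOXB, 7 of HOXC and 4 of HOXD. By paralog number these were 5 of 8 anterior members (numbers 1 to 3), 14 of 15 central members (4 to 8) and 8 of 16 posterior members (9 to 13). Hoxb13, Hoxd1, Hoxd11 and Hoxd13 had no read in any library, and 3 counts, the limit that a count of 0 allows, stand for 0.0846 to 0.764 CPM per library. A further 8 members, Hoxa6, Hoxa11, Hoxa13, Hoxb1, Hoxc11, Hoxc12, Hoxd3 and Hoxd12, had at most 28 reads over all libraries and were not tested. The tested members had 54 (Hoxa2) to 11427 reads (Hoxa7).

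The promoters of Hoxd10, Hoxd9, Hoxd8 and Hoxd4 are shown because these were the tested HOXD members and all 4 differed between genotypes in their response to imiquimod, as given below. Each line holds the 250 bases before the RefSeq transcription start on GRCm38.p6, plus strand, 5′ to 3′. Capitals mark CCAAT (or ATTGG on the other strand) and TATAAA (or TTTATA on the other strand).
Hoxd10: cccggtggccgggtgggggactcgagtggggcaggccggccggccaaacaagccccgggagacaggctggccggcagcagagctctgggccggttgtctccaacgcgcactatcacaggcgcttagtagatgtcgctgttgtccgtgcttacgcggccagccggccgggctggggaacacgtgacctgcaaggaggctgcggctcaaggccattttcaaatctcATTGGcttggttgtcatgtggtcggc
Hoxd9: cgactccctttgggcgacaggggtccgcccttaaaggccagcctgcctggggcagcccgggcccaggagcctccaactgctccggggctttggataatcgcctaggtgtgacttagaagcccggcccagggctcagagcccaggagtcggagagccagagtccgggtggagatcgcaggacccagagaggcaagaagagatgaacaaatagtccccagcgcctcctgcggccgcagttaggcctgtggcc
Hoxd8: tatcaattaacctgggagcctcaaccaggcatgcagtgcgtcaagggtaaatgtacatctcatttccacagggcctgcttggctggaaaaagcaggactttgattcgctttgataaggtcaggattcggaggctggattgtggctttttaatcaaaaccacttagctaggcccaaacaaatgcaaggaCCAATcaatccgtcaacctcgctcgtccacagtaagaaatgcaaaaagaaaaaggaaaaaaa
Hoxd4: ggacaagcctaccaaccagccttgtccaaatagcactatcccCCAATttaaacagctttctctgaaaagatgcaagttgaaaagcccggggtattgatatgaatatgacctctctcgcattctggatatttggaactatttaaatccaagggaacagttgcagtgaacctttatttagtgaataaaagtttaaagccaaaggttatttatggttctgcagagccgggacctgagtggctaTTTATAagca

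These stretches lie at chr2:74691641-74691890 for Hoxd10, chr2:74697513-74697762 for Hoxd9, chr2:74704365-74704614 for Hoxd8 and chr2:74721728-74721977 for Hoxd4. They differed in base composition, with 20 CpG pairs in the Hoxd10 stretch, 13 in that of Hoxd9, 6 in that of Hoxd8 and 3 in that of Hoxd4. RefSeq promoters were matched for 22 of the 39 members, 24 promoters in all, with a median of 12.5 CpG pairs against 6 over all 32851 promoters. Searched on both strands, CCAAT was found in 14 of the 24 (58.3%) and in 33.8% of all promoters, and TATAAA in 16.7% and 12.4%. TGATNNAT, the letters that HOX proteins and their PBX partners bind together, was found in 16.7% and 7.68%, and in none of the 4 stretches shown. A match is a description of the letters only, and promoters that start close together share bases.

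**Figure D1:**
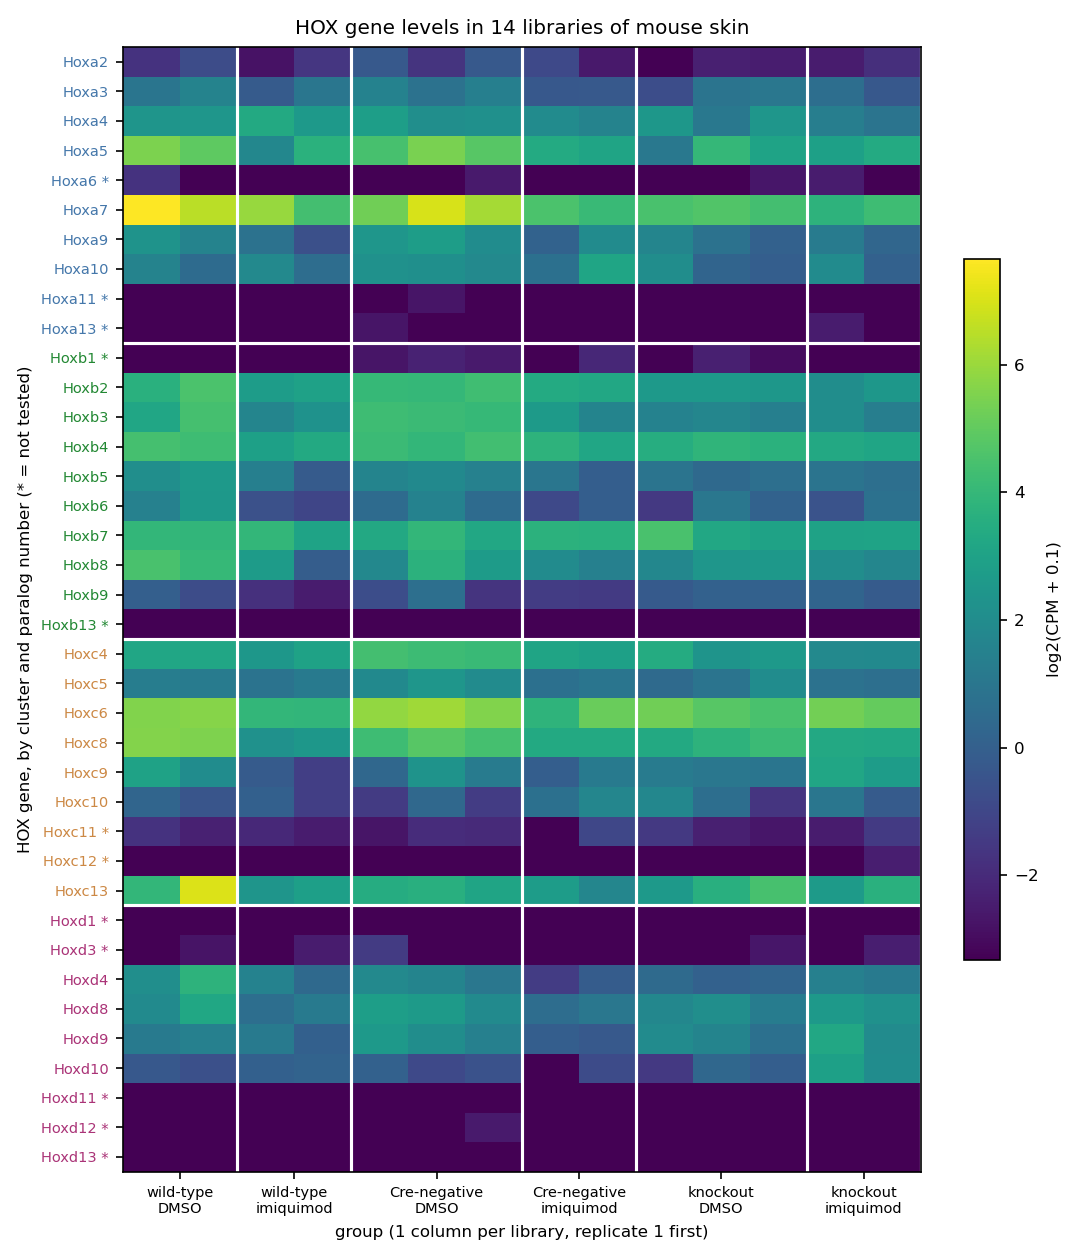
Levels of the HOX genes described, 1 row per gene by cluster and paralog number and 1 column per library, as log2(CPM + 0.1) on a colour scale from dark (low) to bright (high). Hoxa7 is bright in wild-type DMSO skin, Hoxc13 in 1 wild-type DMSO library, and the row of Hoxd10 is brightest in both knockout imiquimod libraries.

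Summed over all members, HOX RNA stood at 497 and 517 CPM in wild-type DMSO skin and at 287, 425 and 304 CPM in Cre-negative DMSO skin. It was 170, 168 and 160 CPM in knockout DMSO skin, 170 and 124 CPM in wild-type imiquimod skin, 139 and 149 CPM in Cre-negative imiquimod skin, and 165 and 151 CPM in knockout imiquimod skin. The 5 DMSO libraries of wild-type and Cre-negative skin were therefore above the other 9, without overlap. The mean of knockout DMSO skin was 49.0% of that of Cre-negative DMSO skin, and the means after imiquimod were 28.9%, 42.6% and 95.2% of those with DMSO in wild-type, Cre-negative and knockout skin. In such whole-tissue RNA, fewer cells of a type and less RNA per cell cannot be told apart.

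Central members held 61.9% to 87.8% of the summed level in every library. HOXD held 15.5% and 9.67% in the knockout imiquimod libraries and 1.85% to 6.14% in the other 12. Posterior members held 25.1% and 20.5% in knockout imiquimod skin, 28.4% in wild-type DMSO replicate 2, where Hoxc13 alone stood at 134 CPM, and 7.30% to 18.4% elsewhere.

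**Figure D2:**
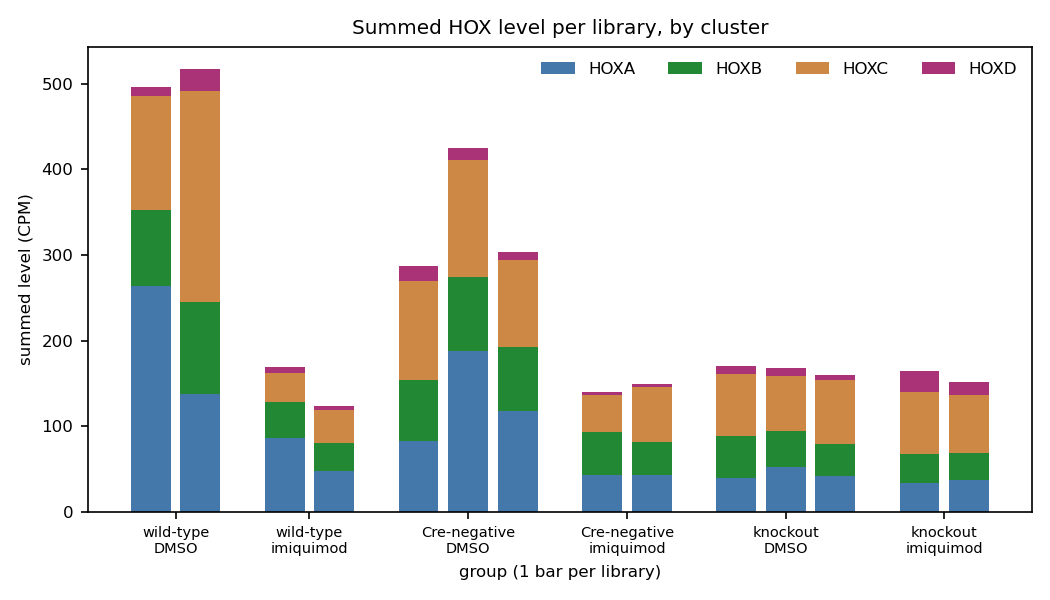
Summed HOX level in CPM for each library (1 bar per library, replicate 1 at the left of each group), stacked by cluster. The 5 DMSO bars of wild-type and Cre-negative skin reach 287 to 517 CPM and the other 9 reach 124 to 170 CPM, and the HOXD segment is tallest in wild-type DMSO replicate 2 and knockout imiquimod replicate 1.

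Levels of single members follow, cluster by cluster, with the libraries of a group in replicate order. In HOXA, Hoxa7, a central member of trunk position, had the highest mean of all HOX genes. It stood at 202 and 92.8 CPM in wild-type DMSO, 62.9 and 20.4 in wild-type imiquimod, 39.1, 127 and 73.1 in Cre-negative DMSO, 23.7 and 17.6 in Cre-negative imiquimod, 22.4, 25.6 and 20.8 in knockout DMSO, and 13.8 and 18.7 in knockout imiquimod skin. All 5 knockout libraries and both Cre-negative imiquimod libraries lay under the lowest DMSO library of the other genotypes. Hoxa5, known from the patterning of the neck and lung, stood at 45.0 and 30.3 CPM in wild-type DMSO, 3.30 and 12.7 in wild-type imiquimod, 22.1, 43.0 and 27.8 in Cre-negative DMSO, 10.3 and 8.41 in Cre-negative imiquimod, 2.04, 15.6 and 8.23 in knockout DMSO, and 7.53 and 10.3 in knockout imiquimod skin. Its 5 wild-type and Cre-negative DMSO libraries were again the highest, and knockout DMSO replicate 1 was the lowest.

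Hoxa9, a posterior member also used in blood stem cells, stood at 4.92 and 2.92 CPM in wild-type DMSO, 1.65 and 0.545 in wild-type imiquimod, 5.31, 6.79 and 3.93 in Cre-negative DMSO, 1 and 3.83 in Cre-negative imiquimod, 3.06, 1.65 and 0.958 in knockout DMSO, and 2.28 and 1.15 in knockout imiquimod skin. Knockout DMSO lay under Cre-negative DMSO skin but overlapped wild-type DMSO skin. Hoxa2, which patterns the tissues of the outer and middle ear, was near the detection limit, with 0.201 and 0.495 CPM in wild-type DMSO, 0.0471 and 0.234 in wild-type imiquimod, 0.727, 0.219 and 0.729 in Cre-negative DMSO, 0.430 and 0.0673 in Cre-negative imiquimod, 0, 0.0971 and 0.0846 in knockout DMSO, and 0.0761 and 0.177 in knockout imiquimod skin. These levels rest on 0 to 13 reads per library.

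In HOXB, Hoxb2 and Hoxb3 pattern the hindbrain and the neck. Hoxb3 stood at 8.93 and 21.6 CPM in wild-type DMSO, 3.11 and 4.67 in wild-type imiquimod, 19.0, 17.8 and 16.1 in Cre-negative DMSO, 6.31 and 2.96 in Cre-negative imiquimod, 2.80, 3.20 and 2.56 in knockout DMSO, and 4.03 and 2.48 in knockout imiquimod skin. For Hoxb2 the levels were 12.4 and 23.5 CPM in wild-type DMSO, 6.59 and 7.79 in wild-type imiquimod, 16.2, 15.9 and 19.4 in Cre-negative DMSO, 10.3 and 9.55 in Cre-negative imiquimod, 5.86, 6.02 and 5.58 in knockout DMSO, and 4.03 and 5.58 in knockout imiquimod skin. For both genes the 5 DMSO libraries of wild-type and Cre-negative skin lay above all 9 others. Their exons overlap those of Hoxb3os on the opposite strand. Without a stated strand setting, reads of the antisense gene cannot be told apart from theirs. Hoxb3os itself, with 634 reads in all, had a log2 fold change of -0.49 ± 0.42 between knockout and Cre-negative DMSO skin (edgeR adjusted p = 0.4).

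Hoxb4, known for expanding blood stem cells, was the HOXB member with the highest mean. It stood at 21.6 and 19.0 CPM in wild-type DMSO, 7.53 and 10.2 in wild-type imiquimod, 18, 15.2 and 19.9 in Cre-negative DMSO, 13.6 and 8.88 in Cre-negative imiquimod, 11.5, 14.6 and 12.9 in knockout DMSO, and 9.74 and 8.68 in knockout imiquimod skin. The groups lay closer together here than for Hoxb3, though the 5 DMSO libraries of wild-type and Cre-negative skin were again the highest. Hoxb8, a trunk member also used in myeloid progenitors, stood at 22.9 and 16.3 CPM in wild-type DMSO, 6.45 and 0.857 in wild-type imiquimod, 3.35, 13.4 and 6.41 in Cre-negative DMSO, 3.87 and 2.69 in Cre-negative imiquimod, 3.31, 5.43 and 5.64 in knockout DMSO, and 4.11 and 3.19 in knockout imiquimod skin. Only the wild-type DMSO libraries stood apart, above the other 12.

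Hoxb5 stood at 4.21 and 6.04 CPM in wild-type DMSO, 2.59 and 0.779 in wild-type imiquimod, 2.96, 3.56 and 2.70 in Cre-negative DMSO, 1.87 and 0.875 in Cre-negative imiquimod, 1.78, 1.26 and 1.52 in knockout DMSO, and 1.75 and 1.51 in knockout imiquimod skin. Hoxb6, its neighbour in the cluster, stood at 2.71 and 5.64 CPM in wild-type DMSO, 0.565 and 0.390 in wild-type imiquimod, 1.34, 2.85 and 1.31 in Cre-negative DMSO, 0.430 and 0.875 in Cre-negative imiquimod, 0.255, 1.94 and 0.987 in knockout DMSO, and 0.609 and 1.59 in knockout imiquimod skin. Hoxb5 was higher in the 5 DMSO libraries of wild-type and Cre-negative skin than in the other 9, while Hoxb6 overlapped between Cre-negative and knockout DMSO skin.

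In HOXC, Hoxc6 and Hoxc8 are thoracic members known from the vertebrae and, for Hoxc6, the mammary gland. Hoxc6 had the highest mean of the cluster, with 48.1 and 50.6 CPM in wild-type DMSO, 15.2 and 15 in wild-type imiquimod, 59.1, 67.7 and 48.2 in Cre-negative DMSO, 14.2 and 35.3 in Cre-negative imiquimod, 38.5, 27.6 and 22.7 in knockout DMSO, and 39.9 and 33.1 in knockout imiquimod skin. Knockout skin lay under Cre-negative DMSO skin with and without imiquimod, and the Cre-negative imiquimod libraries lay far apart from each other. Hoxc8 stood at 49.5 and 45.6 CPM in wild-type DMSO, 4.57 and 5.53 in wild-type imiquimod, 18.7, 27.7 and 21.1 in Cre-negative DMSO, 10.2 and 10.1 in Cre-negative imiquimod, 10.2, 13.6 and 17.7 in knockout DMSO, and 9.89 and 9.56 in knockout imiquimod skin. Wild-type skin held both ends of this range, the highest with DMSO and the lowest with imiquimod.

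Hoxc4, of cervical position, stood at 8.83 and 9.01 CPM in wild-type DMSO, 5.51 and 7.87 in wild-type imiquimod, 20.7, 18.1 and 17.4 in Cre-negative DMSO, 8.46 and 7.47 in Cre-negative imiquimod, 10.7, 5.05 and 6.03 in knockout DMSO, and 3.50 and 3.63 in knockout imiquimod skin. Here the Cre-negative DMSO libraries were above all others, wild-type DMSO included. Hoxc9, which sets the thoracic identity of motor neurons, stood at 7.93 and 3.96 CPM in wild-type DMSO, 0.801 and 0.312 in wild-type imiquimod, 1.17, 4.87 and 2.26 in Cre-negative DMSO, 0.861 and 2.15 in Cre-negative imiquimod, 2.29, 1.94 and 1.80 in knockout DMSO, and 8.90 and 6.55 in knockout imiquimod skin. It was lowest in wild-type imiquimod and high in knockout imiquimod skin, whose range overlapped that of wild-type DMSO skin.

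Hoxc13, the hair shaft regulator, stood at 15.4 and 134 CPM in wild-type DMSO, 5.23 and 7.17 in wild-type imiquimod, 11.1, 12.3 and 8.53 in Cre-negative DMSO, 6.60 and 3.23 in Cre-negative imiquimod, 5.86, 12.0 and 22.2 in knockout DMSO, and 6.24 and 12.5 in knockout imiquimod skin. Wild-type DMSO replicate 2 stood far above the other 13 libraries. In the same library 21 hair shaft keratins and follicle matrix genes summed to 5910 CPM with none at 0, against 113 CPM with 5 of 21 at 0 in wild-type DMSO replicate 1. The other libraries ranged from 17.2 to 727 CPM, and 727 CPM belonged to wild-type imiquimod replicate 1, where Hoxc13 was 5.23 CPM. The part of hair follicle RNA in Hoxc13 was not tested.

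In HOXD, Hoxd8 had the highest mean. It stood at 3.71 and 9.16 CPM in wild-type DMSO, 1.46 and 2.18 in wild-type imiquimod, 7.04, 6.18 and 3.72 in Cre-negative DMSO, 1.43 and 1.95 in Cre-negative imiquimod, 3.31, 4.17 and 2.34 in knockout DMSO, and 5.93 and 4.60 in knockout imiquimod skin. Hoxd4 stood at 4.21 and 13.6 CPM in wild-type DMSO, 2.83 and 1.25 in wild-type imiquimod, 3.52, 3.01 and 1.97 in Cre-negative DMSO, 0.287 and 0.807 in Cre-negative imiquimod, 1.27, 0.971 and 1.07 in knockout DMSO, and 2.66 and 2.13 in knockout imiquimod skin. For both genes the knockout imiquimod libraries lay above the Cre-negative imiquimod and the knockout DMSO libraries, and the Cre-negative imiquimod libraries lay under the Cre-negative DMSO libraries, without overlap.

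Hoxd9 and Hoxd10 are posterior members that pattern the limbs and the lumbar region. Hoxd9 stood at 2.21 and 2.62 CPM in wild-type DMSO, 2.21 and 0.935 in wild-type imiquimod, 5.81, 4.10 and 2.62 in Cre-negative DMSO, 0.861 and 0.740 in Cre-negative imiquimod, 3.82, 3.01 and 1.55 in knockout DMSO, and 9.36 and 3.81 in knockout imiquimod skin. The upper knockout imiquimod library was the highest of all 14, and the lower one overlapped DMSO skin. Hoxd10 stood at 0.702 and 0.545 CPM in wild-type DMSO, 0.942 and 1.01 in wild-type imiquimod, 0.950, 0.438 and 0.583 in Cre-negative DMSO, 0 and 0.471 in Cre-negative imiquimod, 0.255, 1.16 and 0.874 in knockout DMSO, and 7.53 and 3.98 in knockout imiquimod skin. In reads, the knockout imiquimod libraries held 99 and 45 for Hoxd10 and the Cre-negative imiquimod libraries 0 and 7. Both knockout imiquimod libraries lay above all 12 others, none of which passed 1.16 CPM.

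**Figure D3:**
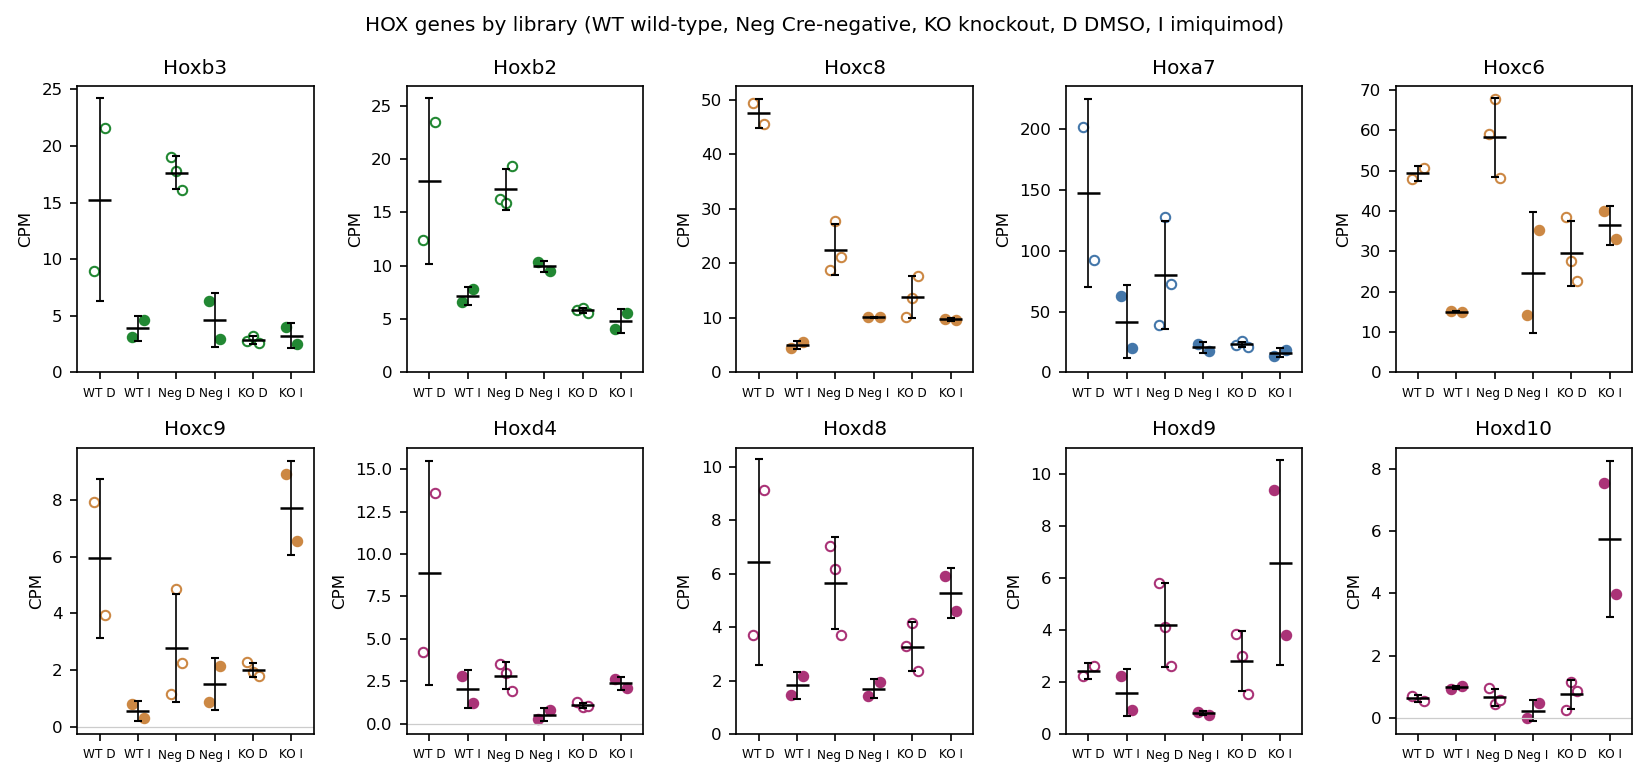
Levels in CPM (linear axes, a scale of its own for each panel) of 10 HOX genes in the 6 groups, with 1 point per library (open for DMSO, filled for imiquimod) and a bar for the mean ± SD. Hoxb3, Hoxb2, Hoxc8 and Hoxa7 are high with DMSO in wild-type and Cre-negative skin, Hoxc6 is lowest in wild-type imiquimod skin and 1 Cre-negative imiquimod library, and Hoxd10 rises above 1.16 CPM only in knockout imiquimod skin.

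Differences between groups were tested with edgeR's quasi-likelihood test over all 16027 genes with enough reads, and a difference counts where the Benjamini-Hochberg adjusted p is under 0.05. The value after ± is a standard error on the log2 scale. Over the 8 comparisons 20 members passed in at least 1, and 7 in none: Hoxa3, Hoxa4, Hoxa10, Hoxb7, Hoxb9, Hoxc5 and Hoxc10. Of these 7, Hoxb7 was the most abundant at 7.84 to 22.9 CPM. The share of tested HOX members that passed was 51.9% for imiquimod in wild-type skin, 40.7% for knockout against wild-type DMSO skin and 29.6% for imiquimod in Cre-negative skin, above the shares over all genes given below. It was 33.3% for knockout against Cre-negative DMSO skin and 25.9% for the difference between responses, near those shares, and 11.1% and 7.41% in the other 2 comparisons with calls, under them.

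To ask what differed between knockout and control skin without imiquimod, knockout DMSO skin was set against Cre-negative DMSO skin. HOX genes were mostly lower in the knockout: 8 of 27 fell and 1 rose, where 29.6% of all genes passed, 15.7% lower and 14% higher. The median log2 fold change of the 27 was -0.69, beside -0.06 over all genes, and 21 of the 27 were below 0. In HOXB, Hoxb3 fell by 2.63 ± 0.41 (adjusted p = 0.00048) and Hoxb2 by 1.56 ± 0.29 (adjusted p = 0.0017). In HOXC, Hoxc4 fell by 1.40 ± 0.31 (adjusted p = 0.0046) and Hoxc6 by 0.99 ± 0.32 (adjusted p = 0.034). In HOXA, Hoxa7 and Hoxa5 each fell by 1.80, with adjusted p = 0.012 and 0.031, Hoxa9 by 1.65 ± 0.59 (adjusted p = 0.049) and Hoxa2 by 2.69 ± 0.92 (adjusted p = 0.041). In all 9 the libraries of the groups did not overlap. The HOXD members ran from -1.39 ± 0.52 for Hoxd4 (adjusted p = 0.06) to 0.35 ± 0.61 for Hoxd10 (adjusted p = 0.69).

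Hoxb3, Hoxb2 and Hoxc4 passed with any 1 of the 6 libraries left out, and the count was 4 without Cre-negative DMSO replicate 2 and 5 without knockout DMSO replicate 2. Library size alone as the scale gave 0 higher and 11 lower, and a term for sex left Hoxb3 and Hoxb2. Only 1 Cre-negative DMSO library was female, so no test within a sex was made. No other group held both sexes, so the sex term rests on that library. With the replicate number as a block, Hoxa2 was at -2.85 (adjusted p = 0.059) and lost its call. Fibroblast markers, of which 6 of 18 fell and 0 rose, summed to 2856 to 3127 CPM in Cre-negative and 1186 to 1607 CPM in knockout DMSO skin. Skeletal muscle markers, of which 15 of 18 fell, summed to 11994 to 31233 CPM and 2826 to 4666 CPM. In both lists 0 of 18 markers were at 0 in any library. Their part in the HOX levels was not tested.

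Wild-type DMSO skin is the other control, all female like knockout DMSO skin. Against it 10 of 27 members fell in the knockout and 1 rose, where 25.6% of all genes passed, 14.4% lower and 11.3% higher, and the HOX median was -1.01 beside -0.06. Hoxd4 fell by 3.04 ± 0.56 (adjusted p = 0.0019), Hoxa7 by 2.68 ± 0.52 (adjusted p = 0.0025), Hoxb3 by 2.43 ± 0.43 (adjusted p = 0.0016), Hoxc8 by 1.76 ± 0.29 (adjusted p = 0.00092) and Hoxb2 by 1.63 ± 0.32 (adjusted p = 0.0026). Hoxb5, Hoxa5, Hoxb8 and Hoxb6 fell by 1.78 to 2.08. These contrasts share the knockout libraries with the one before, so their overlap is no independent evidence. Fibroblast markers fell in 1 of 18 and rose in 0 against wild-type DMSO skin. They summed to 1390 to 2484 CPM in wild-type and 1186 to 1607 CPM in knockout DMSO skin, which overlap, and their part was not tested. Hoxd4, Hoxa7, Hoxb3 and Hoxc8 passed with any 1 library left out, and the count was 4 without wild-type DMSO replicate 2, 7 without replicate 1, and 7 and 6 without knockout DMSO replicates 2 and 3. Hoxc13, at -2.45 ± 0.69 (adjusted p = 0.02), was the 1 member whose libraries overlapped, and without wild-type DMSO replicate 2 it was -0.17 (adjusted p = 0.89).

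Between the control genotypes, Cre-negative and wild-type DMSO skin, edgeR passed 0 HOX members and 0% of all genes. At an unadjusted p under 0.05 there were 4 HOX members, and DESeq2 and limma voom each passed 2. The 4 were Hoxc13 at -2.82 ± 0.70, Hoxc8 at -1.08 ± 0.29, Hoxd4 at -1.65 ± 0.51 and Hoxc4 at 1.07 ± 0.35, with adjusted p from 0.17 to 0.33. The summed HOX level of Cre-negative skin was 66.8% of that of wild-type skin, and their libraries did not overlap. Both wild-type DMSO libraries were female and Cre-negative DMSO replicates 1 and 2 were male, so sex and genotype are partly mixed here. Fibroblast markers, of which 0 of 18 passed, summed to 2856 to 3127 CPM in Cre-negative and 1390 to 2484 CPM in wild-type DMSO skin.

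Imiquimod was set against DMSO within each genotype. In wild-type skin 13 of 27 members fell and 1 rose, where 21.4% of all genes passed, 11.8% lower and 9.59% higher, and the HOX median was -1.57 beside -0.09. Hoxc8 fell by 3.24 ± 0.35 (adjusted p = 1e-04), Hoxc9 by 3.33 ± 0.71 (adjusted p = 0.0065), Hoxc13 by 3.60 ± 0.84 (adjusted p = 0.0099) and Hoxc6 by 1.71 ± 0.40 (adjusted p = 0.01). In HOXB, Hoxb6 fell by 3.10, Hoxb8 by 2.39, Hoxb3 by 1.98, Hoxb2 by 1.33 and Hoxb4 by 1.19, with adjusted p from 0.012 to 0.036. Hoxa5, Hoxa7, Hoxd4 and Hoxd8 fell by 1.82 to 2.25. None of these 14 overlapped between the groups.

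Hoxc8 was the 1 call that held with any of the 4 wild-type libraries left out, and the counts were 7 and 4 without DMSO replicates 1 and 2 and 5 and 7 without imiquimod replicates 1 and 2. Without DMSO replicate 2, Hoxc13 was -1.32 (adjusted p = 0.23), Hoxd4 -1.02 (adjusted p = 0.33) and Hoxd8 -1.03 (adjusted p = 0.27). Fibroblast markers fell in 7 of 18 and summed to 1390 to 2484 CPM with DMSO and 419 to 724 CPM with imiquimod. Adipocyte markers fell in 10 of 12, from 3505 to 3870 CPM down to 408 to 895 CPM, with 0 of 12 at 0 in these libraries. Whether these shifts bear on the HOX levels was not tested.

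In Cre-negative skin imiquimod lowered 8 of 27 members and raised 0, where 18.2% of all genes passed, 10.1% lower and 8.15% higher. The HOX median was -1.23, beside -0.06. The 3 HOXD members that passed were Hoxd9 at -2.39 ± 0.63 (adjusted p = 0.019), Hoxd4 at -2.24 ± 0.64 (adjusted p = 0.028) and Hoxd8 at -1.71 ± 0.50 (adjusted p = 0.03). Hoxa7 fell by 1.96 ± 0.56 (adjusted p = 0.027), Hoxb3 by 1.95 ± 0.46 (adjusted p = 0.011), and Hoxc4, Hoxc6 and Hoxc8 by 1.15 to 1.24. No call held with each of the 5 libraries left out in turn: 1 member passed without either of the imiquimod replicates, and 3 and 2 without DMSO replicates 1 and 2. Upwards, edgeR had 1 member at an unadjusted p under 0.05, Hoxc10 at 2.01 ± 0.90 (adjusted p = 0.14). DESeq2 and limma voom also passed 0 upwards, and edgeR with no filter on low counts passed 1. Fibroblast markers fell in 6 of 18 and summed to 799.5 and 1892 CPM, and skeletal muscle markers fell in 17 of 18 and summed to 1628 and 2680 CPM, and their part was not tested.

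In knockout skin the summed HOX levels overlapped between treatments, at 160 to 170 CPM with DMSO and 151 and 165 CPM with imiquimod. Of 27 members 2 rose, where 11.1% of all genes passed, 8.56% higher and 2.52% lower: Hoxd10 by 2.76 ± 0.62 (adjusted p = 0.012) and Hoxc9 by 1.97 ± 0.58 (adjusted p = 0.045). With library size alone the HOX median was 0.10 and that of all genes 0.12, against -0.02 and -0.04 with TMM scaling. Hoxc9 was lost without any 1 of the 5 libraries (adjusted p of 0.065 to 0.33), and Hoxd10 without knockout imiquimod replicate 1 (2.23, adjusted p = 0.21) or knockout DMSO replicate 3 (2.80, adjusted p = 0.055). Sex goes with treatment in these libraries, female with DMSO and male with imiquimod, so the effects cannot be told apart there. Fibroblast markers rose in 3 of 18 and fell in 1. They summed to 1186 to 1607 CPM with DMSO and to 2004 and 2459 CPM with imiquimod, and their part was not tested.

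**Figure D4:**
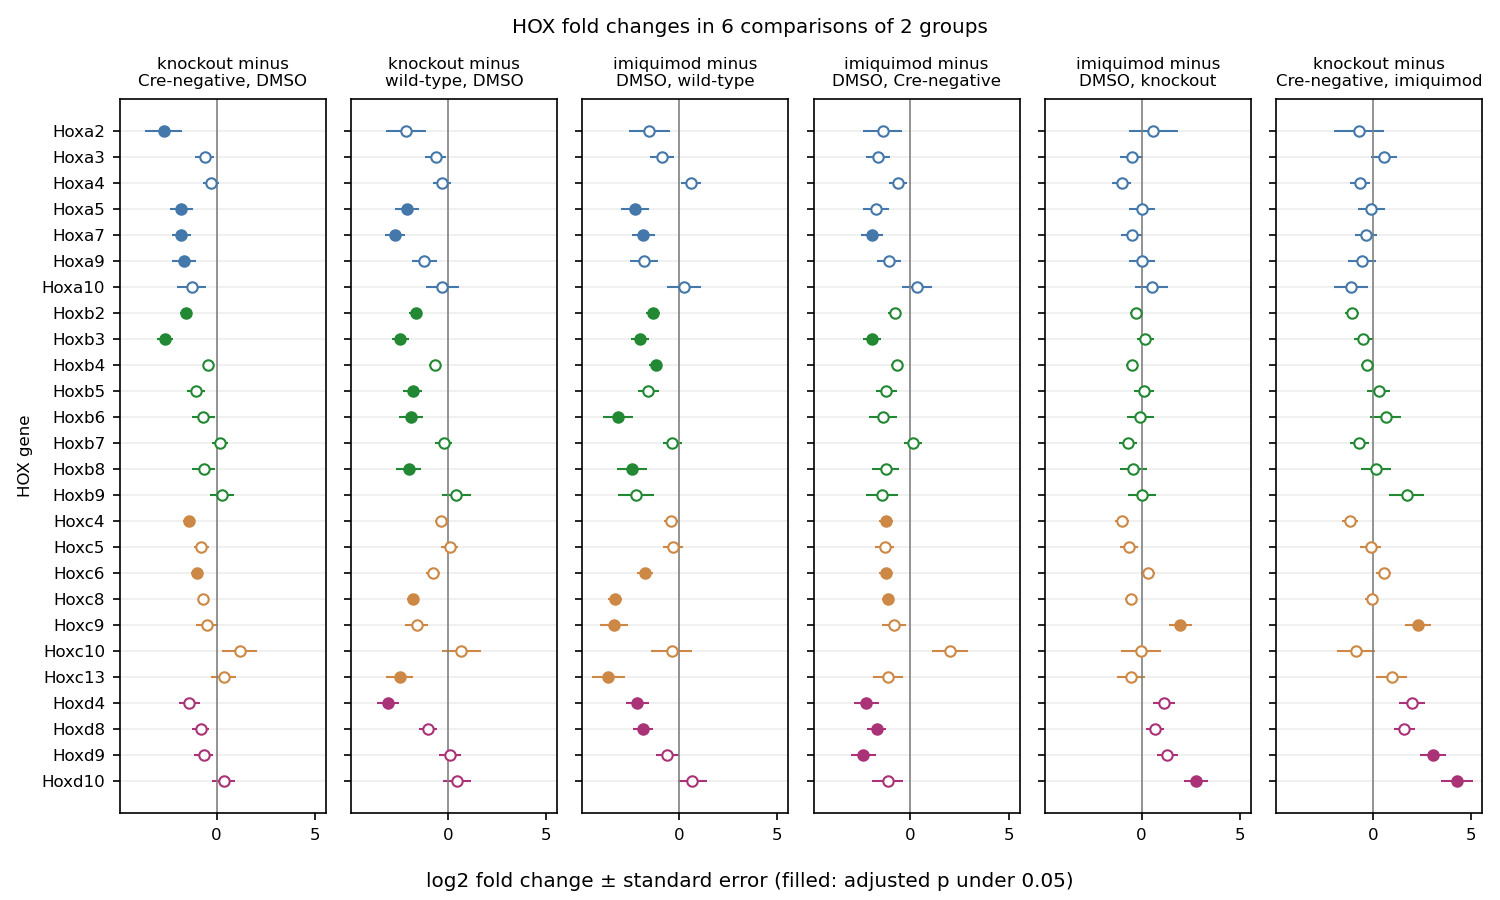
Log2 fold change ± standard error of the tested HOX genes described, in 6 comparisons of group pairs, filled where the edgeR adjusted p is under 0.05. Most filled points lie left of 0 in the first 4 panels, while in the imiquimod panels of knockout skin the filled points, Hoxc9, Hoxd9 and Hoxd10, lie to the right.

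After imiquimod, knockout skin was set against Cre-negative skin, and these 4 libraries were all male. Here 3 of 27 members were higher, all posterior, where 17.9% of all genes passed, 11.6% higher and 6.33% lower: Hoxd10 by 4.27 ± 0.81 (adjusted p = 0.0037), Hoxd9 by 3.05 ± 0.66 (adjusted p = 0.0075) and Hoxc9 by 2.29 ± 0.67 (adjusted p = 0.031). Hoxd8 at 1.61 ± 0.53 (adjusted p = 0.05, just above the threshold) and Hoxd4 at 1.99 ± 0.68 (adjusted p = 0.058) had no overlap between the groups either. The 3 higher members are 11.1% of those tested, near the 11.6% of all genes. The median over HOX genes was -0.06, beside 0.02 over all genes, and with library size alone these were 0.34 and 0.42. DESeq2 passed 5 members upwards and 2 downwards. Hoxd10 passed with any 1 of the 4 libraries left out. The count was 1 without Cre-negative imiquimod replicate 2 or without knockout imiquimod replicate 1, and Hoxc9 was lost with each library left out (adjusted p up to 0.18).

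The difference between the responses to imiquimod, knockout minus Cre-negative, was tested as an interaction. It was above 0 in 23 of 27 members and passed in 7, where 23.6% of all genes passed, 14% higher and 9.63% lower, with medians of 1.16 and 0.11. All 4 tested HOXD members were among them: Hoxd10 at 3.91 ± 1.01 (adjusted p = 0.015), Hoxd9 at 3.71 ± 0.82 (adjusted p = 0.0075), Hoxd4 at 3.38 ± 0.86 (adjusted p = 0.014) and Hoxd8 at 2.42 ± 0.67 (adjusted p = 0.021). The other 3 were Hoxc9 at 2.78 ± 0.86 (adjusted p = 0.033), Hoxb3 at 2.15 ± 0.63 (adjusted p = 0.027) and Hoxc6 at 1.54 ± 0.51 (adjusted p = 0.043). For Hoxd9, Hoxd4 and Hoxd8 the levels fell with imiquimod in Cre-negative skin, so the difference holds both that fall and the level in knockout skin. For Hoxb3 the knockout stood at 2.56 to 3.20 CPM with DMSO, overlapping the 2.96 and 6.31 CPM of Cre-negative imiquimod skin. Whether HOXD differed from the other clusters was not tested.

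With a term for sex none of the 7 passed, with log2 differences from 1.27 for Hoxc6 to 3.75 for Hoxd10, and adjusted p from 0.056 to 0.19. Only Cre-negative DMSO skin held both sexes, so this term rests on its female library, replicate 3, and cannot separate sex from group. None passed without knockout imiquimod replicate 1, 3 passed without Cre-negative imiquimod replicate 1 or without knockout DMSO replicate 3, and 4 without Cre-negative DMSO replicate 1 or 2. Fibroblast markers passed upwards in 7 of 18, and summed to 2004 and 2459 CPM in knockout and 799.5 and 1892 CPM in Cre-negative imiquimod skin. Skeletal muscle markers passed upwards in 14 of 18. Endothelial markers passed upwards in 4 of 10 and neutrophil markers in 3 of 10. The direct comparison of knockout with Cre-negative imiquimod skin, where 11.6% of all genes were higher, gave other counts. There endothelial markers were higher in 8 of 10, with 202 and 424 CPM against 41.2 and 49.4 CPM. Neutrophil markers were higher in 9 of 10, with 3246 and 7044 CPM against 116 and 134 CPM. Fibroblast markers were higher in 4 of 18 and skeletal muscle markers in 1 of 18. Their part in the HOXD levels was not tested. In exons Hoxd4 overlaps Gm28230 and Hoxd10 overlaps Gm28309 on the same strand, and neither Gm28230 nor Gm28309 has a read in the table. How reads in shared exons were counted is not given, so such reads may be missing from Hoxd4 and Hoxd10.

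Among members, co-variation over the 14 libraries was described by Pearson's r of log2(CPM + 0.5). The median r was 0.36 over 83 pairs within a cluster and 0.33 over 268 pairs between clusters, and 0.53 over the 6 HOXD pairs. After group means were removed the medians were 0.02, 0.01 and 0.33. All pairs share the same libraries and scaling.

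HOX proteins bind DNA with TALE cofactors of the PBX, MEIS and PKNOX families. Of 8 tested cofactors edgeR passed 0 in each of the 8 comparisons, with 0 to 3 at an unadjusted p under 0.05. DESeq2 also passed 0, and limma voom passed 3 for knockout against Cre-negative DMSO skin and 1 for knockout against wild-type DMSO skin. Their summed level was 117 to 228 CPM in all libraries. Polycomb and Trithorax proteins keep HOX clusters silent or active, and 6 of 23 fell in knockout against Cre-negative DMSO skin while 0 rose, where 15.7% of all genes fell and 14% rose. They include Ezh1, a histone H3 methyltransferase, at -1.12 ± 0.27 (adjusted p = 0.0073), and the Polycomb readers Cbx7 at -2.41 ± 0.58 (adjusted p = 0.0075) and Cbx2 at -1.53 ± 0.39 (adjusted p = 0.0098). In the difference between responses 4 of 23 were higher, near the 14% of all genes, Cbx7 by 3.11 ± 0.92 (adjusted p = 0.028) and Ezh1 by 1.56 ± 0.42 (adjusted p = 0.019) among them. Of the 23, 0 were lower, but their median was -0.34, beside 0.11 over all genes.

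Retinoic acid turns on anterior HOX genes in the embryo. A list of 20 genes that make, bind, sense or break down retinoic acid, or encode caudal factors, had 14 tested, of which 6 rose and 3 fell in knockout against Cre-negative DMSO skin, where 14% of all genes rose and 15.7% fell. Crabp2, a retinoic acid carrier, rose by 3.17 ± 0.37 (adjusted p = 5.9e-05) and Aldh1a3, which makes retinoic acid, by 5.94 ± 0.71 (adjusted p = 7.3e-05). With imiquimod Crabp2 rose by 1.93 ± 0.43 in wild-type skin (adjusted p = 0.008) and by 2.54 ± 0.38 in Cre-negative skin (adjusted p = 0.00074). Whether these responses differ was not tested.

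Positional transcription factors outside the HOX clusters moved too. Of 17 tested, 10 fell and 1 rose with imiquimod in wild-type skin, where 11.8% of all genes fell and 9.59% rose. Their median was -1.99 beside -0.09 over all genes. The 28 listed genes summed to 196 and 363 CPM in wild-type DMSO replicates 1 and 2. With imiquimod they summed to 93.3 and 88.8 CPM. Hair shaft and follicle genes summed to 113 and 5910 CPM in the same DMSO replicates 1 and 2, and their part was not tested. Lhx2, of hair follicle stem cells, was at -4.61 ± 0.58 (adjusted p = 0.00028) and Tbx15, which sets dorsal skin patterning, at -3.24 ± 0.48 (adjusted p = 0.00078). In knockout against Cre-negative imiquimod skin 8 were higher and 1 lower, where 11.6% of all genes were higher and 6.33% lower. Prrx1, a mesenchymal factor of the limb and face, was higher by 2.46 ± 0.36 (adjusted p = 0.00078) and En1, which marks ventral limb ectoderm and dermal fibroblasts of the back, by 3.38 ± 0.65 (adjusted p = 0.0039), while Dlx5 was at -2.13 ± 0.39 (adjusted p = 0.0032). In the difference between responses 6 of 17 were higher and 2 lower, where 14% of all genes were higher and 9.63% lower. Among the higher were Prrx1 at 3.32 ± 0.45 (adjusted p = 0.00068) and Tbx15 at 3.77 ± 0.59 (adjusted p = 0.0015). Cartilage markers, which an ear sample could hold, were at 0 for 6 to 12 of 15 genes in every library, with Matn1 and Ucma at 0 in all 14. The list summed to 61.7 to 408 CPM, highest in DMSO skin, and Sox9, which hair follicles also express, made up 59.8 to 406 CPM of it. The other 14 genes summed to 0.330 to 2.52 CPM per library.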

How the data were processed

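RNA from 14 mouse skin libraries was measured as 3′ tags, and the authors deposited raw read counts per gene, whole numbers with no normalization, per the file headers. STAR, featureCounts, DESeq2, GRCm38 and GRCm39 are named in the submitters' processing notes without roles or versions. Starts of 0 of 39 HOX genes matched GENCODE M21 on GRCm38, and the positions are GRCm39. The sources used here give no strand or multimapping setting. The second deposited unit, gene length in bases (other), was not used.

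Genes were kept with filterByExpr, which left 16027, scaled by TMM and fitted with a mean for each of 6 groups (edgeR 4.0.16, R 4.3.3), and 8 contrasts were tested by the quasi-likelihood F test at a Benjamini-Hochberg adjusted p of 0.05 over all genes. CPM is computed from counts and TMM-scaled library sizes. Depth was 5552954 to 34362477 counts, and floors of 3 counts cover counting error only, since reads carry no molecular identifiers. The fit was tested on simulated data with planted changes in each comparison. Of 2-fold changes 0% to 4.48% were recovered, of 4-fold changes 7.46% to 62.7% and of 16-fold changes 81.8% to 97%. The lowest 4-fold recovery, 7.46%, was that of the difference between responses. Per comparison 67, 67 and 66 genes were changed 2-fold, 4-fold and 16-fold, and genes with few reads were left out. In most comparisons far more genes passed in the data, so the adjustment was stricter in the simulation. These shares are therefore not the power of the tests above. False calls numbered 1 to 7 per comparison.

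Members given in every library are those past the threshold in at least 1 comparison and the most abundant of each cluster, and from each pathway list up to 3 genes with the smallest p-values. A few genes that this rule names are counted in the totals but not reported here. The members, lists and rules were chosen with earlier results of these data known. Alternatives were DESeq2 1.42.0, limma 3.58.1 voom, other scalings and filters, fewer groups, a replicate block, a sex term, no libraries over 15% Rn18s-rs5 and each library left out. Deviations from the group means of same-numbered Cre-negative and knockout DMSO libraries correlated at 0.26, 0.102 and 0.166. Differently numbered libraries of these groups correlated at -0.268 to 0.104, so the values do not settle a pairing. The labels give no pairing either, and the main fit used none. A fit with the replicate number as a block in every group is given as an alternative where it changes a call. No pair of libraries held the same values. Of 22 hair shaft genes 21 were found in the table.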

Additional observations from a re-analysis of the deposited data

Results flagged for a closer look

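The imiquimod response differed between knockout and Cre-negative skin in 7 HOX genes by an interaction term in edgeR. The log2 difference between responses was 3.91 for Hoxd10, 3.71 for Hoxd9, 3.38 for Hoxd4, 2.78 for Hoxc9, 2.42 for Hoxd8, 2.15 for Hoxb3 and 1.54 for Hoxc6, with adjusted p from 0.0075 to 0.043. These are 25.9% of the 27 tested members, near the 23.6% of all genes that passed. None of the 7 passed with a term for sex or without knockout imiquimod replicate 1. Only Cre-negative DMSO skin held both sexes, so the sex term rests on its female library, replicate 3. Groups of 3 or fewer libraries were not searched for outlying samples.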

How the results depend on the processing

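Over the alternative fits of called members, 644 kept the call, 229 lost it and 0 reversed. Counts of HOX members past the threshold moved by over 1.5 times under these settings. With DESeq2, 7 passed for knockout against Cre-negative imiquimod skin (5 higher and 2 lower) and 2 for Cre-negative against wild-type skin. With limma voom these were 1 and 2, and imiquimod against DMSO gave 4 in Cre-negative, 1 in knockout and 9 in wild-type skin. With library size alone, 5 passed for knockout against Cre-negative imiquimod skin and 13 for imiquimod in Cre-negative skin, and the median of all genes moved to between -0.76 and 0.84. Without the libraries over 15% Rn18s-rs5, imiquimod gave 1 in Cre-negative and 1 in knockout skin. A model of only the groups compared gave 5 for imiquimod in wild-type skin, and no filter gave 1 for Cre-negative against wild-type skin. The sex term gave 2 for knockout against Cre-negative DMSO skin, 0 for imiquimod in knockout skin and 0 for the difference between responses. It is estimated from Cre-negative DMSO skin alone, the only group with both sexes.

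Leaving out 1 library gave 4 to 7 for knockout against Cre-negative DMSO skin, 1 to 2 with imiquimod, 1 to 8, 0 to 1 and 4 to 7 for imiquimod in Cre-negative, in knockout and in wild-type skin, 0 to 7 for the difference between responses, 0 to 1 for Cre-negative against wild-type and 4 to 8 for knockout against wild-type DMSO skin. A lone library left in a group is then assumed to vary like the other groups. Without Cre-negative imiquimod replicate 2, Hoxd10 has 0 counts in that group, so its fitted value there is no bound. The replicate numbers were not taken to pair the libraries in the main fit of any comparison. Over all groups, 11 of 31 same-numbered pairs correlated above 0.1, over a range of -0.32 to 0.49. With a replicate block, knockout against Cre-negative DMSO skin gave 8, with Hoxa2 the call lost, imiquimod in knockout skin gave 1, with Hoxc9 at 1.85 (adjusted p = 0.12), and the other counts stayed within 1.5 times.

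The untested members and Hoxa2, with 54 reads in all, rest on few reads. A member that did not pass is not shown to be equal between groups.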
